A study of Mus musculus with 2 samples.

Results

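Transcripts of 38 interferon-induced genes were examined in regulatory T (Treg) cells of mice. The genes were taken by name, as a list of transcripts known to respond to interferon, and every gene probe on the array that carried 1 of these names was used. This gave 38 of the 30069 gene names on the array, read by 50 probes. The rule uses no measured value, although the list was chosen with earlier results of these data known. The labels name no interferon treatment, and whether interferon acted on the cells in the animals was not tested.

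Treg cells hold other immune cells in check. The series holds 2 libraries of sorted cells from mice 5 weeks old, 1 labelled Nr4a-deficient (the labels also write Nr4a-TKO) and 1 labelled wild-type, each hybridised to 1 single-colour Agilent array. The labels give neither the alleles and any Cre driver behind the deficiency, nor the strain, the tissue, the sort markers or the number of animals in each library. A difference of strain and a difference of genotype cannot be told apart here, and with 1 array per genotype there was no test and no replicate error.

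Interferons are cytokines of antiviral defence. Type I interferons bind the receptor chains Ifnar1 and Ifnar2, the kinases Jak1 and Tyk2 pass the signal on, and a complex that holds Stat2 and Irf9 binds the interferon-stimulated response element (ISRE) in promoters. Interferon gamma acts through Ifngr1 and Ifngr2 on other elements, and T cells carry the receptors of both types.

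The targeted genes were read first. The Nr4a1 probe gave 80407 intensity units on the array labelled Nr4a-deficient and 51441 on the wild-type array, and the brighter of the Nr4a2 probes gave 3134 on the array labelled Nr4a-deficient and 1850 on the wild-type array. The signal of Nr4a3 was too dim to be read on either array. Nr4a1 and Nr4a2 signals thus went against the label, and the extent of each deletion is not given. A probe outside the deleted part checks nothing, and for this reason each direction below is drawn for the array labelled Nr4a-deficient. T cell genes were bright on both arrays. Cd3e, a chain of the T cell receptor complex, gave 109161 intensity units on the array labelled Nr4a-deficient and 111548 on the wild-type array. The probe of Foxp3, the factor that defines Treg cells, was close to background, at 74.5 on the array labelled Nr4a-deficient and 85.4 on the wild-type array.

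All differences are log2 values of the array labelled Nr4a-deficient minus those of the wild-type array. Each array was first scaled to its own 75th percentile, which was 1762 intensity units on the array labelled Nr4a-deficient and 2047 on the wild-type array. A difference of at least 1, which is 2-fold, was counted as higher or lower. The probe with the highest mean over both arrays stands for its gene. Where a gene was well above background on just 1 of the arrays, its fold is a bound, written "at least". Spike-in RNAs lay 0.36 ± 0.057 higher on the array labelled Nr4a-deficient after this scaling (SD, n = 8 spike-ins), so a scale set by them lowers every difference by that amount.

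All 38 genes were detected, 37 of them on both arrays. Oasl2, Ly6a and Ifitm1 were at least 2-fold higher on the array labelled Nr4a-deficient (3 of 38, against 4.7% of the 18540 detected genes), and Ifi202b, Apol9a and Apol9b were at least 2-fold lower (3 of 38, against 4.94%). In either direction 9.63% of detected genes passed 2-fold. With the spike-ins as the scale, 1 member was higher, Oasl2, and 4 were lower, since Isg15 joined. On that scale 27.4% of the calls among all genes were higher, against 48.8% on the percentile scale. The other 32 members differed by less than 2-fold at the probe that stands for the gene. Xaf1 is among them, although its other probe differed by 4.28.

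Small differences leaned to the lower side. Of the 38 genes, 27 lay below 0 (71.1%), against 49.5% of all detected genes. The median difference was -0.17, against 0.0033 over all detected genes. The sets were not matched for brightness, with a median scaled level of 1.54 for members and -0.42 for all detected genes. Among the genes measured on both arrays, 9 of 37 members lay between -0.25 and -1 (24.3%, against 15.5% of all genes), 19 lay within 0.25 of 0 (51.4%, against 63.4%), and 4 lay between 0.25 and 1 (10.8%, against 15.4%). Xaf1, whose probes disagree, counts below 0 and between -0.25 and -1 by the brightest-probe rule only. Under at least 1 other setting the sign changed for Mx2, Oas3, Ddx58, Irgm1, Iigp1, Gbp2, Gbp4, Ly6e and Xaf1, and for no other member. The scanner software assigns an error to each signal, and the errors of both arrays were combined into an error of the difference. That error ranged from 0.20 to 0.35 for the 37 members. Of their differences, 22 were larger than their own error and 13 were larger than 2 times that error.

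**Figure D1:**
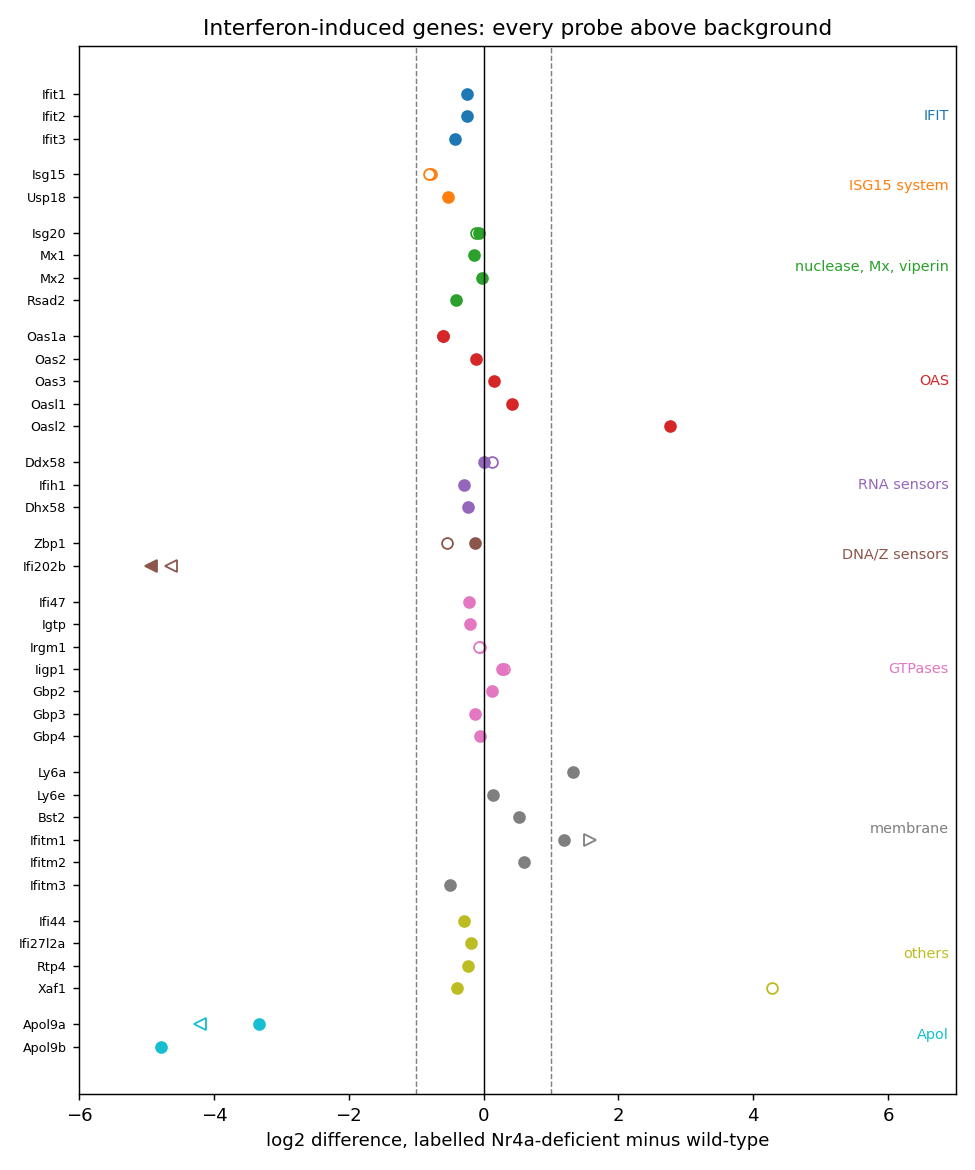
Log2 difference (labelled Nr4a-deficient minus wild-type) of each member by role group, 1 marker per probe above background; filled markers are the brightest probe of a gene, open markers other probes, triangles bounds, and dashed lines mark 2-fold. Most genes lie just left of 0, Ifi202b, Apol9a and Apol9b lie beyond -3, and Oasl2 and 1 of the Xaf1 probes lie beyond 2.

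The sensors of viral RNA differed little. Ddx58, which encodes RIG-I, gave 10494 intensity units on the array labelled Nr4a-deficient and 12182 on the wild-type array, a difference of 0.00 after scaling, with 0.12 at its other probe. Ifih1, which encodes the long-RNA sensor MDA5, had a difference of -0.28 (neither array gave its other probe a signal well above background), and Dhx58, which encodes their regulator LGP2, had -0.23. All 3 sensors stayed within 2-fold.

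Among transcripts of the translation and replication blockers, the IFIT genes, whose proteins bind foreign RNA ends, were lower by small amounts. Ifit1 gave 2742 intensity units on the array labelled Nr4a-deficient and 3769 on the wild-type array, with a difference of -0.24. Ifit2 gave 1171 on the array labelled Nr4a-deficient and 1615 on the wild-type array, with -0.25, and Ifit3 gave 5178 on the array labelled Nr4a-deficient and 8076 on the wild-type array, with -0.43. All 3 lay on the same side of 0. The dynamin-like GTPase genes Mx1 and Mx2, which block viral replication, differed by -0.14 and -0.02. Isg20, an RNA exonuclease gene, differed by -0.07, with -0.11 at its other probe. Rsad2 encodes viperin, an enzyme that makes a chain-terminating nucleotide, and gave 1012 intensity units on the array labelled Nr4a-deficient and 1554 on the wild-type array, a difference of -0.40.

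Both ISG15 genes lay below 0, and Isg15 had the most negative value among the members within 2-fold. Isg15 encodes a ubiquitin-like protein that is attached to other proteins and also secreted. Its probes gave 18416 and 1005 intensity units on the array labelled Nr4a-deficient, against 36746 and 2038 on the wild-type array. The probes differ widely in brightness and yet gave nearly the same difference, -0.78 and -0.80. Isg15 ranked 705th from the lowest among 16298 genes measured on both arrays. Usp18 removes ISG15 from proteins and dampens type I receptor signals, and gave 4232 intensity units on the array labelled Nr4a-deficient and 7074 on the wild-type array, a difference of -0.52.

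The promoter of Isg15 is shown because it holds the element through which type I interferon is known to act on this gene. The sequence is RefSeq's (GRCm38.p6, chr4:156200819-156201068, minus strand), 250 bases up to the transcription start, with matches to the ISRE core GAAANNGAAA in capitals. Its 3 overlapping matches begin 78 bases before the start.
Isg15 promoter: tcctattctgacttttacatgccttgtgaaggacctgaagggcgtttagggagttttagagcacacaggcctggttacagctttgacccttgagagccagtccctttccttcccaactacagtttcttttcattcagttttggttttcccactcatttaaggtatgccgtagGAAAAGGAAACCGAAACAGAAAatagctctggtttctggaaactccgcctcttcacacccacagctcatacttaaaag

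The OAS genes encode enzymes that sense double-stranded RNA and make 2'-5' oligoadenylate, the activator of RNase L. They did not move as a group, with 3 above 0 and 2 below, and Oas3 changes side on the spike-in scale. Oas1a was lower at both probes, which gave 4201 and 788 intensity units on the array labelled Nr4a-deficient and 7420 and 1395 on the wild-type array. Those differences were -0.60 and -0.61. Oas2 differed by -0.11 and Oas3 by 0.15. Oasl1, whose protein lacks the enzyme activity and limits Irf7 translation in mice, differed by 0.42.

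Oasl2 stood apart from the rest of its family. Its probe gave 1235 intensity units on the array labelled Nr4a-deficient, against 210 on the wild-type array. This is 6.83-fold higher after scaling (log2 difference 2.77), 49th from the highest of 16298 genes. Oasl1 lies beside Oasl2 on chromosome 5, and of 13 genes detected within 250 kb of the Oasl2 probe none was 2-fold higher and 1 was 2-fold lower. Of the other OAS genes read here, Oas1b differed by -0.03, Oas1c by -0.40, Oas1d by 0.23, Oas1e by -0.33 and Oas1f by -0.61. The Oasl2 probe (mm9, chr5:115362168-115362227, plus strand) is the only one for this gene, and its first 30 bases are given to identify it. The 250 bases before the Oasl2 start (RefSeq, GRCm38.p6, chr5:114896684-114896933, plus strand) are shown for contrast with Isg15, and held no match to the ISRE core.
Oasl2 probe: tgctctagaatggtaccaatccagtatcaa
Oasl2 promoter: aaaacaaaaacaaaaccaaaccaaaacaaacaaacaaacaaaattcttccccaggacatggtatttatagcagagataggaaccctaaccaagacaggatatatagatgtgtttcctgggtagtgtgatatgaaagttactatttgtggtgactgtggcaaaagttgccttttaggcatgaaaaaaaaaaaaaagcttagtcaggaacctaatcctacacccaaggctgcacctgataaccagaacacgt

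**Figure D2:**
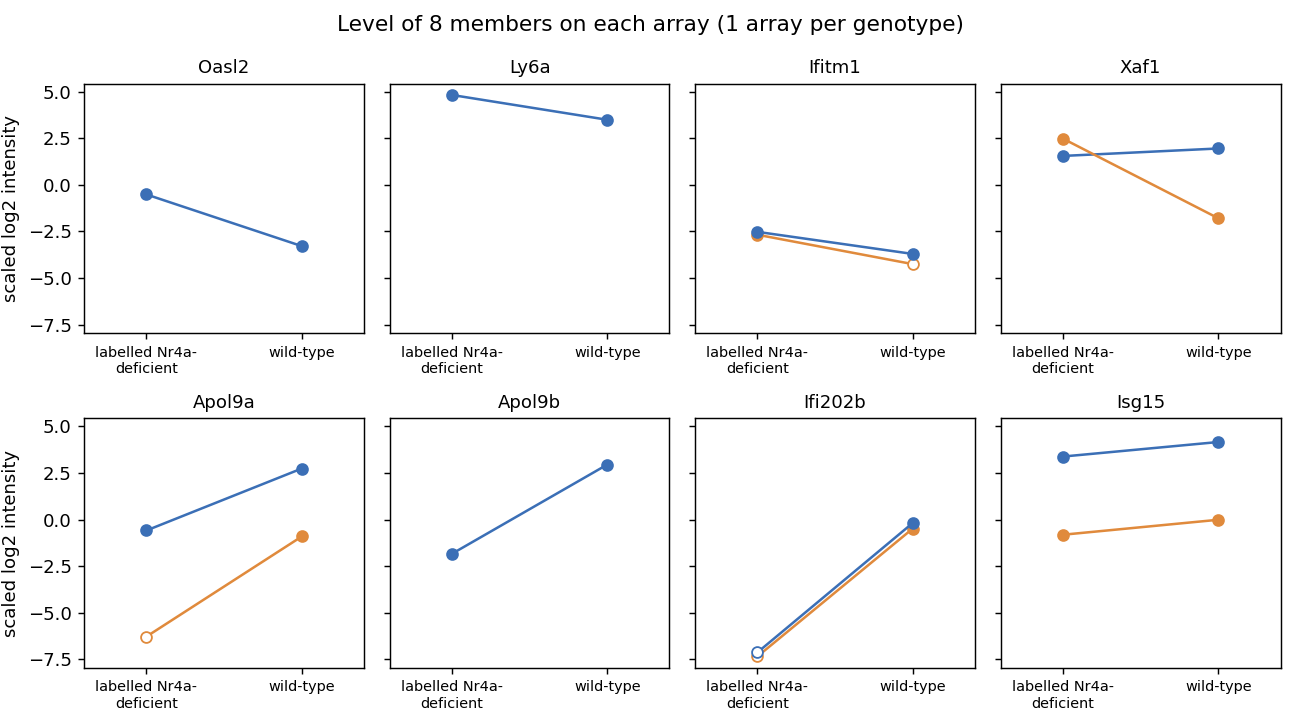
Level of 8 members on each array (log2 intensity minus the array's 75th percentile), with 1 point per array for each probe; blue is the brightest probe of the gene, orange its other probe, and open points are not well above background. Both Isg15 probes and both Ifi202b probes run in parallel, and the Xaf1 probes cross.

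Of the sensors of DNA and Z-form nucleic acid, Zbp1 stayed within 2-fold and Ifi202b did not. Zbp1, which starts necroptosis on binding Z-form nucleic acid, differed by -0.13 and -0.54 at its probes. Ifi202b belongs to the HIN-200 family of DNA-binding proteins and is known to bind DNA without starting an inflammasome. Its probes A and B gave 12.6 and 10.9 intensity units on the array labelled Nr4a-deficient, against 1813 and 1472 on the wild-type array. In the library labelled Nr4a-deficient this is the level of the negative-control spots, whose median was 12.9. Ifi202b was therefore at least 30.5-fold lower at probe A and at least 24.8-fold lower at probe B. The first 30 bases of each probe show that the probes read different stretches of the gene (mm9, minus strand, chr1:175892789-175892848 for probe A and chr1:175892953-175893982 for probe B).
Ifi202b probe A: ctgctcaaatataatacatacaacatccag
Ifi202b probe B: attgacctcaaatgcagatgagtggtttct

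The family members near Ifi202b did not share its difference. Of 7 genes detected within 250 kb of it, 0 were 2-fold higher and 1 was lower, the olfactory receptor gene Olfr429 (named after its value was seen), which was not well above background on the array labelled Nr4a-deficient. Ifi203 differed by 0.25, Mndal by 0.07 and Ifi204 by -0.72. Aim2, the HIN-200 gene that does start an inflammasome on cytosolic DNA, gave 532 intensity units on the array labelled Nr4a-deficient and 3550 on the wild-type array and was 5.74-fold lower. Ifi202b expression is known to vary among inbred mouse strains.

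The apolipoprotein L genes Apol9a and Apol9b, interferon-induced genes with antiviral activity in mice, were both far lower. Apol9b gave 494 intensity units on the array labelled Nr4a-deficient, against 15874 on the wild-type array, 27.6-fold lower (log2 difference -4.79). The brighter Apol9a probe gave 1177 on the array labelled Nr4a-deficient and 13704 on the wild-type array, a difference of -3.33. The other Apol9a probe gave 22.7, not well above background, on the array labelled Nr4a-deficient and 1094 on the wild-type array, at least 18.4-fold lower. All 3 probes were thus lower. Apol9b was 4th and Apol9a 14th from the lowest among the 16298 genes.

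The Apol9b probe and the brighter Apol9a probe are nearly the same oligonucleotide. They match at 57 of 60 bases (95%) although they lie 332530 bases apart on mm9 (chr15:77566751-77566810, plus strand, and chr15:77234221-77234280, minus strand). The first 30 bases of each hold all differing bases, in capitals. Counted from the 5′ end, the changes from the Apol9a to the Apol9b probe are C5G, G8A and T29G. Each probe may carry signal from the other gene, so their separate values are uncertain. The other Apol9a probe (chr15:77234673-77234732, minus strand) matched no probe of another member or listed relative at 80% of bases or more. Probes were compared with probes and not with transcripts, so whether it also reads Apol9b was not tested.
Apol9a probe: agccCacGcccatcctcaggcatgtcatTg
Apol9b probe: agccGacAcccatcctcaggcatgtcatGg
Apol9a other probe: actgaggaagctggctcgagagctggagga

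Other apolipoprotein L genes differed less. Apol10b, near Apol9b, gave 119 intensity units on the array labelled Nr4a-deficient and 341 on the wild-type array and was 2.47-fold lower. Apol7b differed by -0.73. Apol7c and Apol11b ran the other way and were dim, well above background on the array labelled Nr4a-deficient only. They were at least 1.62-fold and at least 1.15-fold higher there. Of 8 genes detected within 250 kb of the Apol9b probe, 0 were 2-fold higher and 1, Apol10b, was lower. The Apol9 and Ly6a probes lie on chromosome 15, as does the Nr4a1 probe, 23.5 Mb from Apol9b, 23.9 Mb from Apol9a and 26.3 Mb from Ly6a. The Ly6e probe, with a difference of 0.13, is also 26.3 Mb from it. Of the other members past 2-fold, Ifi202b lies on chromosome 1, Oasl2 on chromosome 5 and Ifitm1 on chromosome 7. Ifih1 and Zbp1 lie on chromosome 2 with Nr4a2, and Isg15 and Ddx58 on chromosome 4 with Nr4a3. On the percentile scale all of these members stayed within 2-fold. On mm9 the brighter Ifih1 probe starts at base 62435507 and the brighter Nr4a2 probe at 56960699. The brighter Ddx58 probe starts at base 40151893 and the Nr4a3 probe at 48080690. Whether position bears on any difference was not tested. The promoter of Apol9b is shown because it pairs a large difference with ISRE core matches. The 2 overlapping matches, in capitals, begin 37 bases before the start (RefSeq, GRCm38.p6, chr15:77728822-77729071, plus strand).
Apol9b promoter: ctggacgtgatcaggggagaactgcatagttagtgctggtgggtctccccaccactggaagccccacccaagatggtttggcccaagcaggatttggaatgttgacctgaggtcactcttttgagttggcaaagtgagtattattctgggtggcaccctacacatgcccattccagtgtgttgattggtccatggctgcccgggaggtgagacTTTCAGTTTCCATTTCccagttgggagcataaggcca

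Across the members, the ISRE core (GAAANNGAAA on either strand) was present between 250 bases before and 50 bases after the start in 17 of 26 genes with a RefSeq promoter entry (65.4%). It was present in 1079 of 27025 genes with such an entry (3.99%). The core of the gamma-activated site, TTCNNNGAA, which reads the same on both strands, was present in 7 of 26 members (26.9%) and in 9.55% of all genes. The 17 genes with an ISRE core had a median difference of -0.24, with 0 higher and 2 lower. The 9 without had a median of -0.21, with 2 higher and 1 lower. Of all detected genes 4.7% were higher and 4.94% lower, and no contrast between the groups is drawn from counts this small. The 2 lower genes with a core are Apol9a and Apol9b, whose brighter probes are nearly the same, and 12 members, Ly6a among them, had no entry. A match is a run of letters and not a known binding site.

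The interferon-gamma-induced GTPases attack the vacuoles of intracellular pathogens, and they were nearly level between the arrays. All 7 stayed within 2-fold, with a median of -0.06. Of the immunity-related GTPases, Igtp was printed in 10 spots per array, which gave 44835 ± 1224 intensity units on the array labelled Nr4a-deficient and 59854 ± 2151 on the wild-type array (SD over spots), a difference of -0.20. The spots of the arrays came close after scaling, with a highest scaled value of 4.73 on the array labelled Nr4a-deficient and a lowest of 4.77 on the wild-type array, and a change of scale can make them overlap. Spots of 1 array share 1 RNA, so this spread is spot noise and leaves out differences between animals and sorts.

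The other GTPases gave the same picture. Ifi47 gave 46849 intensity units on the array labelled Nr4a-deficient and 63045 on the wild-type array, with a difference of -0.21. Irgm1, a regulator of the family, differed by -0.05, with -0.07 at its other probe, and Iigp1 by 0.28, with 0.30 at its other probe. The guanylate-binding proteins coat and break pathogen vacuoles, and Gbp2 differed by 0.12, Gbp3 by -0.13 and Gbp4 by -0.06. The largest difference of the group at any probe was the 0.30 of Iigp1.

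The membrane proteins leaned the other way, with 5 of 6 above 0 and a median of 0.56, although Ly6e turns below 0 on the spike-in scale. Ly6a encodes Sca-1, a surface protein of stem cells and activated T cells. It gave 49970 intensity units on the array labelled Nr4a-deficient and 23074 on the wild-type array, 2.52-fold higher (log2 difference 1.33). Ly6e, a relative that hinders the entry of coronaviruses, gave 85336 on the array labelled Nr4a-deficient and 90327 on the wild-type array, with a difference of 0.13. The Ly6a probe (mm9, chr15:74825553-74825612, minus strand) and the Ly6e probe both lie in the Ly6 gene cluster on chromosome 15.

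Several other Ly6 genes were higher too. Of 7 detected Ly6 relatives outside the members, 4 were at least 2-fold higher, against 4.7% of all detected genes. Ly6k (0.04) and Ly6i (0.48) were not. Ly6h ran the other way, well above background on the wild-type array only, with a bound of -0.44. Ly6c1 gave 75770 intensity units on the array labelled Nr4a-deficient and 35347 on the wild-type array, a difference of 1.32. Ly6d differed by 1.43, Ly6f by 1.44 and Ly6g by 1.35. Of 9 genes detected within 250 kb of the Ly6a probe, 4 were higher and 0 lower. The higher ones were Ly6c1, Ly6d and Ly6g, already counted above, and Ly6a2 (1.31, named after its value was seen). The 2 counts are thus largely the same observation. No probe of Ly6e or of the relatives counted above matched the Ly6a probe at 80% of bases or more. The Ly6a2 probe was not compared. Transcripts were not searched, so whether the Ly6a probe also reads related genes was not tested.

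**Figure D3:**
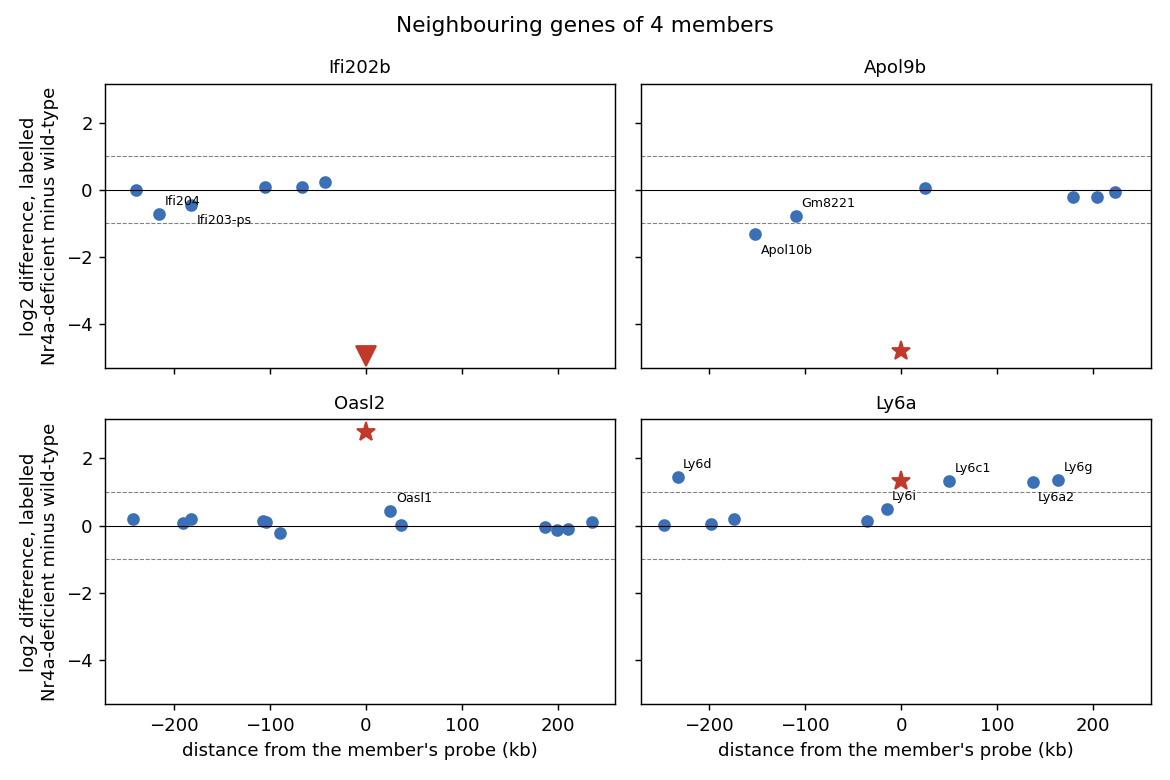
Log2 difference of genes measured on both arrays within 250 kb of the probes of Ifi202b, Apol9b, Oasl2 and Ly6a, against distance from that probe in kb; red marks the member itself (a triangle is a bound) and dashed lines mark 2-fold. Around Ly6a 4 genes lie above the upper line, and around Oasl2 all plotted neighbours lie between the lines.

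The interferon-induced transmembrane proteins block fusion of viruses with cell membranes, and their genes did not share a direction. Ifitm1 was dim. Its brighter probe gave 307 intensity units on the array labelled Nr4a-deficient and 157 on the wild-type array, a log2 difference of 1.19. Its other probe gave 276 on the array labelled Nr4a-deficient and 107 on the wild-type array, where it was not well above background, and was at least 2.99-fold higher. The probes overlap over 59 bases, with 54 of them the same, so they are not independent readings. Ifitm2 gave 802 intensity units on the array labelled Nr4a-deficient and 616 on the wild-type array, with a difference of 0.60.

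Ifitm3, the best known of these antiviral proteins, lay on the other side of 0. Its 10 spots gave 1499 ± 59.4 intensity units on the array labelled Nr4a-deficient and 2457 ± 115 on the wild-type array (SD over spots), a difference of -0.50, with no overlap between the arrays. Of the relatives outside the members, Ifitm6 differed by 1.52, Ifitm10 by 1.08 and Ifitm7 by 0.02. Bst2 encodes tetherin, which holds budding viruses at the cell surface and is also a marker of mouse plasmacytoid dendritic cells. It gave 16836 intensity units on the array labelled Nr4a-deficient and 13538 on the wild-type array, a difference of 0.53.

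Of the remaining members, all 4 lay below 0 at the probe that stands for the gene. Ifi44 was dim, with 79.0 intensity units on the array labelled Nr4a-deficient and 112 on the wild-type array, and differed by -0.29. Ifi27l2a, a small membrane protein gene, gave 176585 on the array labelled Nr4a-deficient and 233600 on the wild-type array, with -0.19. Rtp4, whose protein is a chaperone of receptors, differed by -0.23.

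Xaf1, whose protein opposes the apoptosis inhibitor XIAP, was read in opposite directions by its probes. The probe with the higher mean gave 5175 intensity units on the array labelled Nr4a-deficient and 7932 on the wild-type array, a difference of -0.40. The other gave 9850 on the array labelled Nr4a-deficient and 591 on the wild-type array, a difference of 4.28. These probes lie 5006 bases apart (mm9, chr11:72122169-72122228 and chr11:72127175-72127234, plus strand), and their first 30 bases are given so that the transcripts they read can be looked up. No direction is given for Xaf1 as a gene, and it was counted within 2-fold by the brightest-probe rule only.
Xaf1 first probe: ccttcaacccttgcatttatggactctgga
Xaf1 second probe: tctgtatttctggaccacagtcactcattt

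Probes of the other members were closer to each other where both were measured. Apart from Xaf1, the 7 genes with 2 probes above background on both arrays had probes that differed by 0.41 at most, in Zbp1.

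Genes that carry the interferon signal were mostly level. Of 33 detected signalling genes, 1 was at least 2-fold higher and 0 lower, with 18 above 0, 15 below and a median of 0.02. Of the receptor chains, Ifnar1 gave 7549 intensity units on the array labelled Nr4a-deficient and 11547 on the wild-type array and differed by -0.40, and Ifnar2 by 0.10. For interferon gamma, Ifngr1 differed by 0.08 and Ifngr2 by -0.32.

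The kinases and factors downstream lay close to 0. Jak1 differed by 0.21 and Tyk2 by 0.16. Stat2 differed by 0.01 and Irf9 by -0.22. Irf1, an early factor of the gamma response, differed by 0.05, and Irf7, which amplifies type I interferon, by 0.22. The 1 gene past 2-fold was Irf8, a factor of dendritic cells, B cells and macrophages. It gave 23920 intensity units on the array labelled Nr4a-deficient and 8719 on the wild-type array, 3.19-fold higher.

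Of 15 interferon ligand genes on the array, 10 were detected, 6 of them on both arrays. Ifng gave 2189 intensity units on the array labelled Nr4a-deficient and 2374 on the wild-type array, a difference of 0.10. Ifna12 gave 162 on the array labelled Nr4a-deficient and 86.0 on the wild-type array, where it was not well above background, and was at least 2.19-fold higher.

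Of 78 detected interferon-induced genes outside the members, 2 were at least 2-fold higher and 1 lower (9.63% of all detected genes passed 2-fold in either direction), with 32 above 0, 46 below and a median of -0.03. Cxcl9, a chemokine gene induced by interferon gamma, gave 599 intensity units on the array labelled Nr4a-deficient and 171 on the wild-type array, 4.07-fold higher. Ciita, the master activator of MHC class II genes, gave 334 on the array labelled Nr4a-deficient and 146 on the wild-type array, 2.66-fold higher. The lower gene was Aim2.

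**Figure D4:**
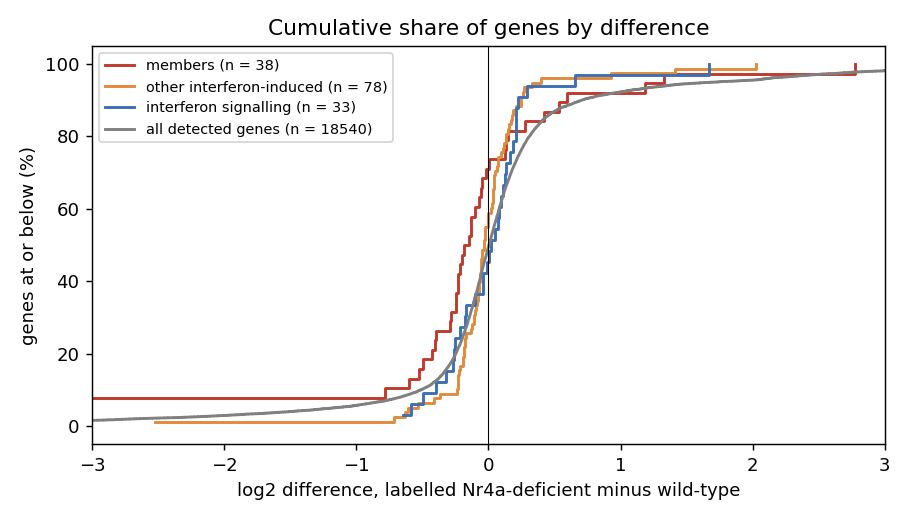
Cumulative share of genes (%) by log2 difference (labelled Nr4a-deficient minus wild-type) for the 38 members, 78 other interferon-induced genes, 33 signalling genes and 18540 detected genes, with the axis ended at -3 and 3 and genes above background on 1 array at their own values. The curve of the members lies left of that of all genes around 0, where 71.1% of members and 49.5% of all genes are below 0.

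Markers of other cell types differed between the libraries, and their part in the values above was not tested. In bulk samples, fewer cells of a type and less RNA per cell cannot be told apart. Of 12 detected plasmacytoid dendritic cell markers 10 were at least 2-fold higher, with a median of 1.84. Their summed level, in units of the array's 75th percentile, was 119 on the array labelled Nr4a-deficient and 93.8 on the wild-type array. Siglech and Pacsin1, the 2 markers within 2-fold, were the brightest and made up most of both sums. The sums therefore say little about the other 10. Pacsin1 differed by 0.17. Klk1 was not well above background on the wild-type array, and Siglech, the defining marker, differed by 0.10 at 136839 intensity units on the array labelled Nr4a-deficient and 147869 on the wild-type array.

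Conventional dendritic cell markers summed to 5.69 on the array labelled Nr4a-deficient and 0.66 on the wild-type array, with 4 of 6 detected markers higher. Clec10a, Cd209a and Zbtb46 were not well above background on the wild-type array. B cell markers summed to 19.2 on the array labelled Nr4a-deficient and 8.44 on the wild-type array, with 3 of 9 higher, and NK cell markers to 15.7 on the array labelled Nr4a-deficient and 8.0 on the wild-type array, with 3 of 6 higher. Most of both NK cell sums came from Nkg7. Granulocyte markers summed to 3.15 on the array labelled Nr4a-deficient and 1.95 on the wild-type array, with 3 of 7 higher. The higher ones were Ly6g, Hdc and Siglecf. S100a8 differed by 0.31, S100a9 by 0.14, Mpo by 0.87 and Elane by -0.06. Ly6g weighed heavily in the sums, at 2566 intensity units on the array labelled Nr4a-deficient and 1168 on the wild-type array. Ly6d is itself on the plasmacytoid dendritic cell list and Ly6g on the granulocyte list. Irf8, Bst2, Ciita and Cxcl9, which dendritic cells and B cells or macrophages are known to express, also lay above 0, although macrophage and monocyte markers had a median of -1.29. Which cells gave the signal of these genes was not tested.

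Macrophage and monocyte markers ran the other way. They summed to 47.6 on the array labelled Nr4a-deficient and 67.5 on the wild-type array, with 1 of 9 higher and 5 lower. Erythroid and platelet markers summed to 5.93 on the array labelled Nr4a-deficient and 21.3 on the wild-type array, with 4 of 5 lower. Most of both sums came from Hba-a1. The lower macrophage and monocyte markers were 2.45- to 3.03-fold lower, and the lower erythroid and platelet markers 3.09- to 8.67-fold lower. Csf1r (-0.96), Cd68 (-0.27) and Itgam (0.33) stayed within 2-fold. Ifi202b, Apol9a, Apol9b and Aim2 lay in the same direction as the lower markers. Their sizes ran from 5.74-fold for Aim2 to at least 30.5-fold for Ifi202b. Whether they are related to these markers was not tested. T cell and Treg markers summed to 298 on the array labelled Nr4a-deficient and 321 on the wild-type array, with 0 of 10 higher and 1 lower, the interleukin-2 receptor gene Il2ra.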

How the data were processed

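Intensity values of single spots were deposited, made by the authors with Agilent Feature Extraction 10.7.3.1 per the file headers, which subtracted background within each array. The authors' deposited value table holds the same intensity values per probe and was used as an alternative. Of 43020 gene spots per array, 173 on the array labelled Nr4a-deficient and 209 on the wild-type array were left out as outliers, and none was saturated. Log2 was taken of the processed signal, the array's 75th percentile was subtracted, and spots of a probe were averaged. Well above background means that over 50% of a probe's spots carried that call, as held for 58.7% of probes on the array labelled Nr4a-deficient and 55.6% on the wild-type array. A bound set the bright array's value against either the lowest value well above background on the dim array or, if higher, the value measured there. Both arrays were on 1 slide and from 1 scan. The number of arrays limits the precision.

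Coordinates of probes come from the array design (mm9). The exon or other feature under each probe was not looked up. Gene names were updated through RefSeq (GRCm38.p6), with 27234 probes matched on accession, 3576 on symbol and 565 on a synonym, and 8054 kept the design's name. Promoters are RefSeq's, with an entry for 26 of 38 members. Alternatives used limma 3.58.1 in R 4.3.3. The calculation was tested on simulated data.

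The members and all lists were chosen with earlier results of these data known. The text names all members with every probe, the Nr4a genes, the central signalling genes, relatives of the members, and up to 4 genes past 2-fold at each end of the other lists. A result that this rule names is not reported here. Other genes named are marked as such or belong to the marker lists.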

Additional observations from a re-analysis of the deposited data

How the results depend on the processing

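With 1 array per genotype no result has a replicate error, and no paired analysis was possible because each group holds 1 sample. Over 12 alternatives, 34 of 38 members kept their call and 29 their sign in every alternative that gave them a value. With the spike-ins as the scale, 1 member was higher, and the medians were -0.53 for members, -0.40 for other interferon-induced genes and -0.35 for signalling genes, against -0.36 for all genes. With the array median as the scale, these medians were -0.26, -0.13 and -0.077, against -0.094 for all genes. Other settings brought the median of members closer to 0. It was -0.116 with the 75th percentile over probes above background on both arrays, against 0.053 for all genes. It was -0.123 with quantile normalization (all genes 0.0085) and -0.119 with cyclic loess (all genes 0.0049). Ly6a was at 0.97 and Isg15 at -1.15 with the spike-ins. Ifitm1 was at 0.82 with the spike-ins and at 0.91 and 0.82 under normexp without and with quantile normalization. Averaging probes put Xaf1 at 1.94, by construction. Oasl2 ranged from 2.26 to 2.82, Apol9a from -4.35 to -3.26 and Apol9b from -5.15 to -4.56 over all 12. Ifi202b had a value in 11 alternatives, from -6.95 to -3.65, and could not be called among probes above background on both arrays. Among all genes, higher and lower calls were 3.04% and 8.05% with the spike-ins, and 2.65% and 3.06% among genes above background on both arrays. Unfiltered, 6.85% were higher and 5.94% lower, and under normexp with quantile normalization 3.05% and 3.58%. Causes were not tested. The SD of the difference over repeated spots was 0.47 for dim, 0.080 for middle and 0.044 for bright probes.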

Other observations

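Values of further interferon-induced and signalling genes are given here as values only, since these genes were chosen for naming after their values were seen. On the log2 scale (labelled Nr4a-deficient minus wild-type), the peptide transporter genes Tap1 and Tap2 differed by -0.05 and 0.18, and Tapbp, which loads peptides, by 0.03. The immunoproteasome genes Psmb8, Psmb9 and Psmb10 differed by -0.17, -0.19 and -0.11, and their activator genes Psme1 and Psme2 by -0.23 and -0.02. Of the enzymes that attach ISG15 to proteins, Ube2l6 differed by -0.54 and Herc6, the ligase in mice, by 0.03. Socs1, a brake on the Jak kinases, differed by -0.64, and Socs3, another, by 0.65.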
